A study of Mus musculus with 20 samples.

Results

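The unfolded protein response and integrated stress response were followed through 10 genes, Hspa5, Herpud1, Atf6, Xbp1, Atf4, Atf5, Ddit3, Trib3, Asns and Chac1, taken by symbol from a table of 15465 named genes. Each symbol stood on a single row, and all 10 were among the 14003 genes with enough signal to be tested. They were measured by RNA sequencing in 4 lung metastases and 4 primary tumours of a BC (breast cancer) mouse model. The tumours of both groups were derived from 4T1, a mouse mammary carcinoma line, were grown as an orthotopic model and were sampled at 28 days. No treatment or engineered allele is given for either group, and the mouse strain is not given in the sources used here. The lung metastasis and the primary tumour with the same number came from the same mouse, so the replicate is the mouse. Because all 8 tumours go back to 1 cell line, the mice sample the host and the growth of that line, not different cancers. The study set metastases against primary tumours to find genes that differ between them; its PDAC (pancreatic ductal adenocarcinoma) libraries were not used here, since their values do not follow the gene symbols beside them.

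These genes belong to a system that adjusts a cell to misfolded protein in the endoplasmic reticulum (ER) and to shortage of amino acids. IRE1, PERK and ATF6 are the ER sensors. IRE1 splices the Xbp1 transcript, ATF6 is cut in the Golgi to free a transcription factor, and PERK phosphorylates the translation factor eIF2 alpha. The kinases GCN2, PKR and HRI phosphorylate the same factor under other stresses. General translation then falls while ATF4 and ATF5 are translated from their existing transcripts, so the RNA level of Atf4, Atf5, Atf6 and Xbp1 reads only part of their activity. The transcript levels of their targets, among them Hspa5, Herpud1, Ddit3, Trib3, Asns and Chac1, are the usual RNA readout of the response. In solid tumours the response is known to be engaged by hypoxia, poor nutrient supply and high secretory load.

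Promoter stretches of 4 of these targets are shown because they carry the DNA elements through which the factors of the ER arm and of the ATF4 arm are known to act. They are RefSeq sequences of build GRCm38.p6, 120 bases each, matched by symbol and written 5′ to 3′ on the strand of the gene, and the capitals mark the elements found by an exact search of both strands.
Hspa5, chr2:34771970-34772089, plus strand: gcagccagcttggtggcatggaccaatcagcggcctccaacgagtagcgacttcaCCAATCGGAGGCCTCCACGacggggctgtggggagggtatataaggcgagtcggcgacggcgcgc
Herpud1, chr8:94386309-94386428, plus strand: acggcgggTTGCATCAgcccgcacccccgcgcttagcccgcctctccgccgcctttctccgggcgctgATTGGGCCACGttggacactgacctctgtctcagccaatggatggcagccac
Asns, chr6:7693210-7693329, minus strand: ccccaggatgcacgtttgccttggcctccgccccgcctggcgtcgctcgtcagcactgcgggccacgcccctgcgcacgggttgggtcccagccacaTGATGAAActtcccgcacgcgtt
Chac1, chr2:119351022-119351141, plus strand: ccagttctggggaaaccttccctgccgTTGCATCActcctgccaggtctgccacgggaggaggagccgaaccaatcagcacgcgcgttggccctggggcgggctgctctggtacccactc

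The ER stress response element, CCAAT and CCACG with 9 bases between them, was found in the Hspa5 promoter 65 to 47 bases before the annotated start. Its variant, ATTGG and CCACG with 1 base between them, was found in the Herpud1 promoter 52 to 42 bases before the start. The ATF4 composite site, TGATGNAA, stood 112 to 105 bases before the start of Herpud1, 23 to 16 before that of Asns and 193 to 186 before that of Chac1, and it was also found just after the start of Trib3. No motif overlapped another in these stretches. Over all 32851 promoter windows of 300 bases (250 before and 50 after a start), these motifs stood in 0.119%, 0.0365% and 3.97% of the windows. Of the 10 genes, 9 matched the promoter table, with 10 windows. A match is a description of these letters and not evidence of binding in the tumours.

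The 8 libraries held 15447918 to 28995834 reads, the fewest in lung metastasis 3. Values below are normalised read counts, reads per 1000000 of a library size scaled by the authors, given for mice 1 to 4 in that order. Genes listed for tumour epithelium had reads in both groups, though these reads cannot be assigned to tumour rather than host epithelium. Krt8, a keratin of simple epithelium, averaged 736 ± 520 in the lung metastases and 951 ± 326 in the primary tumours (SD, n = 4 each). The 8 genes of that list did not go one way: Krt19 was called higher (log2 3.03) and Cldn4 lower (log2 -2.80) in the metastases, both named after their values were seen, and the other 6 were not called. Transcripts of host lung were also present in the metastases. Of 16 lung epithelium genes, 14 were called higher, and their summed share of reads was 0.755% to 3.44% in lung metastases, against 0.011% to 0.0152% in primary tumours, with none at 0 reads in all primary tumours. Of 13 neutrophil genes, 11 were called higher, with a summed share of 0.842% to 3.06% in lung metastases, against 0.0365% to 0.276% in primary tumours. Lung metastasis 3 was the highest metastasis for lung epithelium and neutrophil genes, and primary tumour 2 was the highest primary tumour for neutrophil genes. Every value is therefore a mixture over tumour and host cells, in which fewer cells of a type and less RNA per cell cannot be told apart.

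None of the 10 genes differed between lung metastases and primary tumours at an adjusted p under 0.05 (limma, Benjamini-Hochberg over 14003 genes), against 9.13% of all genes tested (7.18% of all genes higher and 1.96% lower in lung metastases). At an unadjusted p under 0.05, 1 of the 10 passed (Herpud1), against 23% of all genes. edgeR and DESeq2 on the recovered whole reads also called 0 of the 10, where they called 7.5% and 14.3% of all genes. The estimates split evenly, 5 higher and 5 lower in lung metastases, with a median log2 difference of -0.029 over the 10 genes and -0.055 over all genes tested. The typical size of a difference, taken without its sign, was a log2 of 0.29 for the 10 genes and 0.33 for all genes. The groups overlapped for all 10 genes; over all genes they did not overlap in 17.9%, with lung metastases higher in 10.4% and lower in 7.56%.

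**Figure D1:**
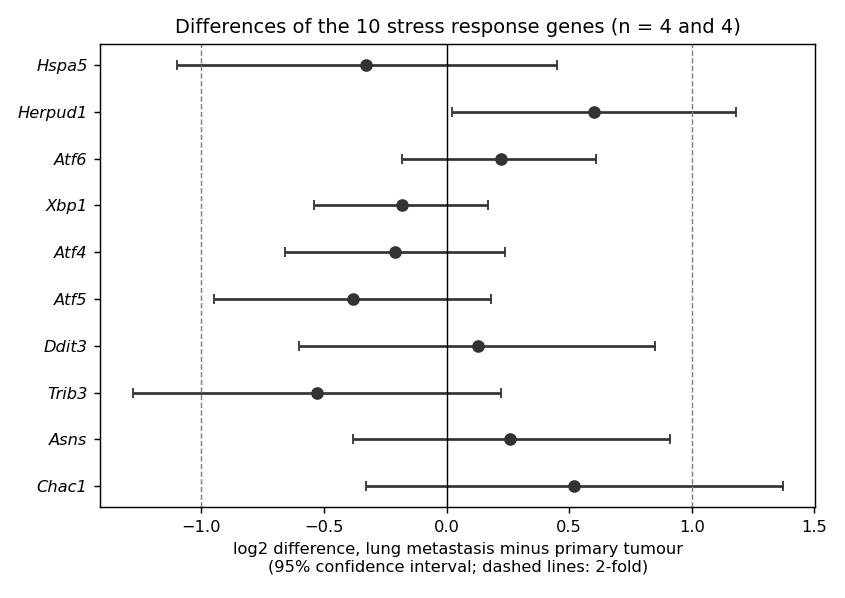
Log2 difference (lung metastasis minus primary tumour, on the log2(value + 1) scale) of the 10 stress response genes, with 95% confidence intervals from limma, n = 4 and 4; dashed lines mark 2-fold. The intervals of 9 of the 10 genes include 0 and those of 6 lie within the 2-fold lines.

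A missed threshold does not show that the levels were equal, and the width of the intervals says how much could have been missed. For 6 genes (Atf6, Xbp1, Atf4, Atf5, Ddit3 and Asns) the 95% interval of the difference lay inside 2-fold in either direction. For Hspa5, Herpud1, Trib3 and Chac1 it reached past 2-fold on one side. The outermost bounds over the 10 genes were 0.412-fold, for Trib3, and 2.59-fold, for Chac1.

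Among the ER arm targets, Hspa5 encodes BiP, the main chaperone of the ER lumen. It stood at 1789.9, 1662, 704 and 1969.7 in the lung metastases and 1704, 2019, 1664 and 1784 in the primary tumours. The metastases of mice 1, 2 and 4 lay within or close to the range of the primary tumours, and that of mouse 3 lay far below all 7 other libraries. The group difference (log2 -0.33, SE 0.351, 95% interval -1.1 to 0.45, adjusted p = 0.614) rested on that library, and without it the log2 difference was 0.01 (adjusted p = 0.977; 0.425 to 0.977 over 18 alternatives). Lung metastasis 3 was also the library with the largest lung epithelium share, 3.44%, and the part of this in the Hspa5 value was not tested.

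Herpud1 encodes an ER membrane protein of the machinery that removes misfolded protein (ER-associated degradation). It stood at 58.8, 59.3, 105 and 40.6 in the lung metastases and 36.3, 37.8, 48.6 and 40.8 in the primary tumours. Mice 1 to 3 had more in the metastasis, mouse 4 did not, and lung metastasis 3 was the highest library. The log2 difference of 0.60 (SE 0.263, 95% interval 0.02 to 1.18) had an unadjusted p of 0.0437 and an adjusted p of 0.201 (0.0701 to 0.372 over 18 alternatives). Without lung metastasis 3 it was 0.35, and without lung metastasis 4 it was 0.80. In lung metastasis 3, Hspa5 was at its lowest and Herpud1 at its highest of all 8 libraries.

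**Figure D2:**
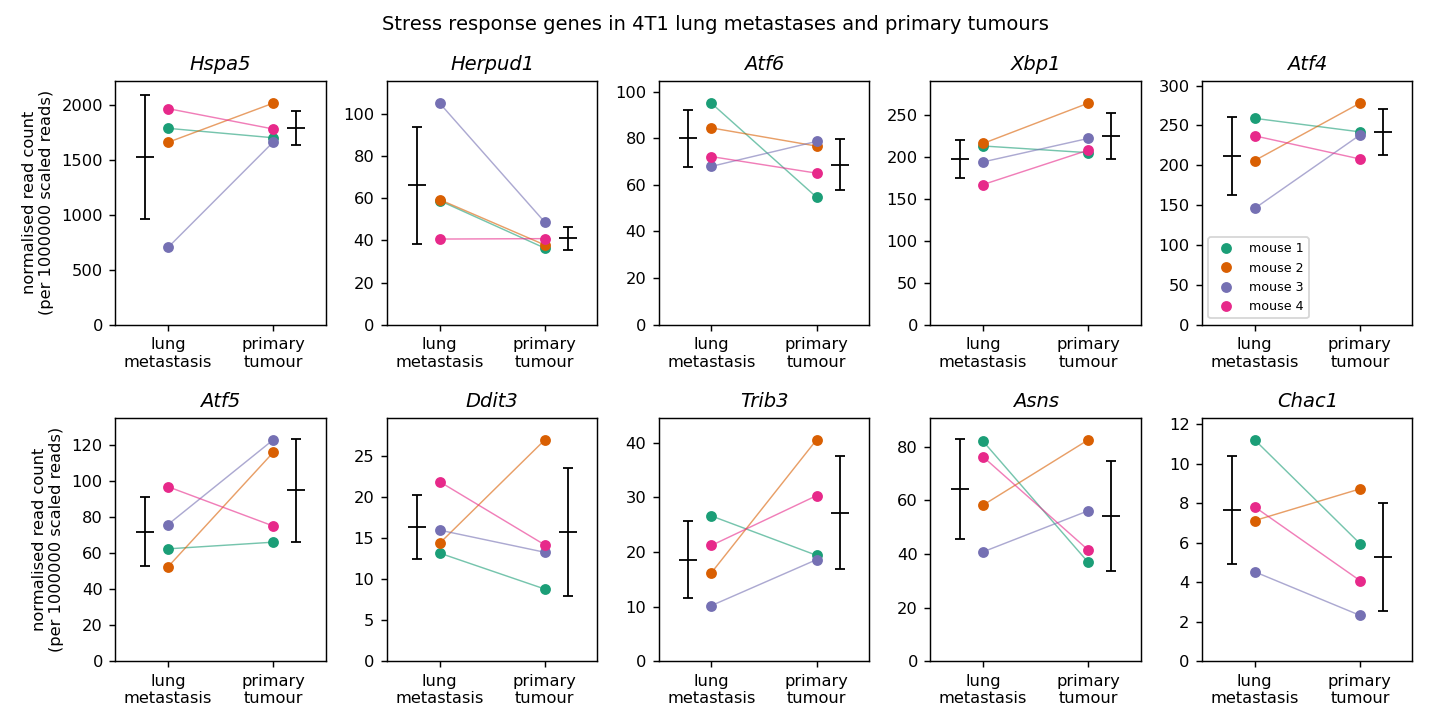
Normalised read count of each of the 10 genes in every library, lung metastases left and primary tumours right, with lines joining tumours of the same mouse; the black marks beside the points are the mean and SD of each group (n = 4). The groups overlap for all 10 genes, and the lines of a gene run in both directions.

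None of the 5 transcription factor genes passed the test. Atf6, the ER sensor that becomes a transcription factor after cleavage, stood at 95, 84.4, 67.9 and 72.1 in the lung metastases and 54.7, 76.6, 78.6 and 65 in the primary tumours. Its values overlapped between the groups, and the metastasis was higher in 3 of 4 mice (log2 0.22, SE 0.18, adjusted p = 0.508). Xbp1, whose transcript IRE1 splices, stood at 213, 216, 194 and 167 in the lung metastases and 205, 264, 222 and 208 in the primary tumours. The groups overlapped, with a highest value 1.29 times the lowest among metastases and 1.28 times among primary tumours, and its difference had the smallest standard error of the 10 (log2 -0.18, SE 0.161, 95% interval -0.54 to 0.17, adjusted p = 0.529). The deposited values count all Xbp1 reads, so the spliced and unspliced forms were not separated. Plasma cells depend on XBP1, and 3 of 6 tested B and plasma cell genes were called higher (Igj, Pax5 and Cd79b, named after their values were seen). The 11 listed genes with values had a summed share of 0.0164% to 0.032% in lung metastases, against 0.0212% to 0.0256% in primary tumours, but most of it was Sdc1, at 182 ± 44.7 in the lung metastases and 221 ± 14.7 in the primary tumours. Igj, the immunoglobulin joining chain gene, averaged 32.8 ± 30.4 in the lung metastases and 1.87 ± 1.91 in the primary tumours. The part of these cells in the Xbp1 values was not tested.

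Atf4, the central transcription factor of the integrated stress response, stood at 259, 206, 146 and 237 in the lung metastases and 242, 278, 238 and 208 in the primary tumours. Only lung metastasis 3 and, by a small margin, lung metastasis 2 lay below the primary range (log2 -0.21, SE 0.202, 95% interval -0.66 to 0.24, adjusted p = 0.568). Leaving out lung metastasis 3 brought the log2 difference to -0.04. Atf5, a related factor under the same translational control, stood at 62.5, 52.5, 76 and 97 in the lung metastases and 66.2, 116, 123 and 75.2 in the primary tumours. Primary tumours 2 and 3 stood above all other libraries, and the metastasis was higher in 1 of 4 mice (log2 -0.38, SE 0.255, adjusted p = 0.407).

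Ddit3 encodes CHOP, a transcription factor that ATF4 induces and that is known for promoting cell death under lasting ER stress. It stood at 13.2, 14.4, 16 and 21.9 in the lung metastases and 8.82, 27, 13.3 and 14.2 in the primary tumours. Both the lowest and the highest library were primary tumours, those of mice 1 and 2, so the metastases lay inside the primary range (log2 0.13, SE 0.326, adjusted p = 0.848). The sign of the estimate changed without lung metastasis 4 (log2 -0.02) and without primary tumour 1 (-0.10). Exons of Ddit3 share 68 bases with Mars, and those of Atf5 share 82 with Nup62 and with Il4i1, all on the opposite strand in the GENCODE M21 annotation. Ddit3 also shares 105 exon bases with a second protein-coding entry of the same symbol on the same strand, and 13 with Gm4189 on the opposite strand. How the counting treated strand and shared exons is not given in the sources used here, so the levels of Ddit3 and Atf5 are uncertain by the reads in these stretches.

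The remaining targets read the ATF4 arm. Trib3, a pseudokinase that restrains ATF4 and AKT signalling, stood at 26.6, 16.2, 10.2 and 21.2 in the lung metastases and 19.4, 40.5, 18.6 and 30.3 in the primary tumours. Its estimate was the most negative of the 10 (log2 -0.53, SE 0.338, 95% interval -1.28 to 0.22, adjusted p = 0.381), with primary tumour 2 highest and lung metastasis 3 lowest, and without lung metastasis 3 it was -0.29. Asns, which encodes asparagine synthetase, stood at 82, 58.2, 40.8 and 76.2 in the lung metastases and 36.9, 82.5, 56.1 and 41.5 in the primary tumours. In mice 1 and 4 the metastasis had more Asns (log2 1.13 and 0.86) and in mice 2 and 3 the primary tumour did (-0.49 and -0.45), so the group difference was small (log2 0.26, SE 0.291, adjusted p = 0.627).

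Chac1, which encodes an enzyme that degrades glutathione and is induced through ATF4 and CHOP, had the fewest reads of the 10 genes. It stood at 11.2, 7.12, 4.53 and 7.81 in the lung metastases and 5.96, 8.72, 2.33 and 4.09 in the primary tumours, which rests on 67 to 283 reads per library. It was higher in the metastasis of 3 of 4 mice (log2 0.52, SE 0.385, 95% interval -0.33 to 1.37, adjusted p = 0.456). The values differed 3.75-fold between lowest and highest among the primary tumours and 2.47-fold among the metastases. Trib3, Asns and Chac1, set side by side, thus gave 1 negative and 2 positive estimates, none past the threshold.

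The direction of the difference varied by mouse. In mouse 1, 9 of the 10 genes were higher in the metastasis, with a median log2 difference of 0.48, whereas 49.5% of all genes were higher there. In mouse 2, 2 of the 10 were higher, with a median of -0.36 (52.1% of all genes). Mouse 3 had 3 of 10 higher (median -0.33, 47% of all genes) and mouse 4 had 7 of 10 (median 0.17, 47.9% of all genes). No gene of the 10 went the same way in all 4 mice.

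The 10 genes were then ranked by library within each tissue. Among the metastases, 6 of the 10 genes (Hspa5, Atf6, Atf4, Trib3, Asns and Chac1) were lowest in lung metastasis 3, where 40.2% of all genes were lowest, a share not far from that of the 10. Lung metastasis 3, the library with the fewest reads, was also the highest metastasis for 37.9% of all genes and for 1 of the 10. Among the primary tumours, 7 of the 10 were highest in primary tumour 2, where 29.8% of all genes were highest. Lung metastasis 3 was the one with the most lung epithelium, neutrophil, endothelial and red-cell reads. It also had the fewest reads of the tumour epithelium list (0.0967%, against 0.165% to 0.329% in the other metastases). Of the 8 genes of that list, however, only 2, Krt8 and Krt18, were lowest there among the metastases, and Cdh1 was highest there. Primary tumour 2 had the fewest reads of the tumour epithelium list (0.156%), with Krt8, Krt18 and Krt7, but no other gene of the list, lowest there. It had the most neutrophil reads of the primary tumours (0.276%) and the fewest macrophage reads (0.307%, against 0.612% to 0.756%). It also had the most endothelial reads of the primary tumours (0.0962%, against 0.0283% to 0.0398%), with 12 of 12 endothelial genes highest there, and the fewest fibroblast and matrix reads (0.124%, against 0.258% to 0.296%). Within their tissues, lung metastasis 3 and primary tumour 2 thus both had the most neutrophil and endothelial reads. Both also had the lowest summed share of the tumour epithelium list, although most genes of that list were not lowest there. Only Hspa5, Atf4, Trib3, Asns and Chac1 were both lowest in lung metastasis 3 among the metastases and highest in primary tumour 2 among the primary tumours. The part of composition in these levels was not tested.

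**Figure D3:**
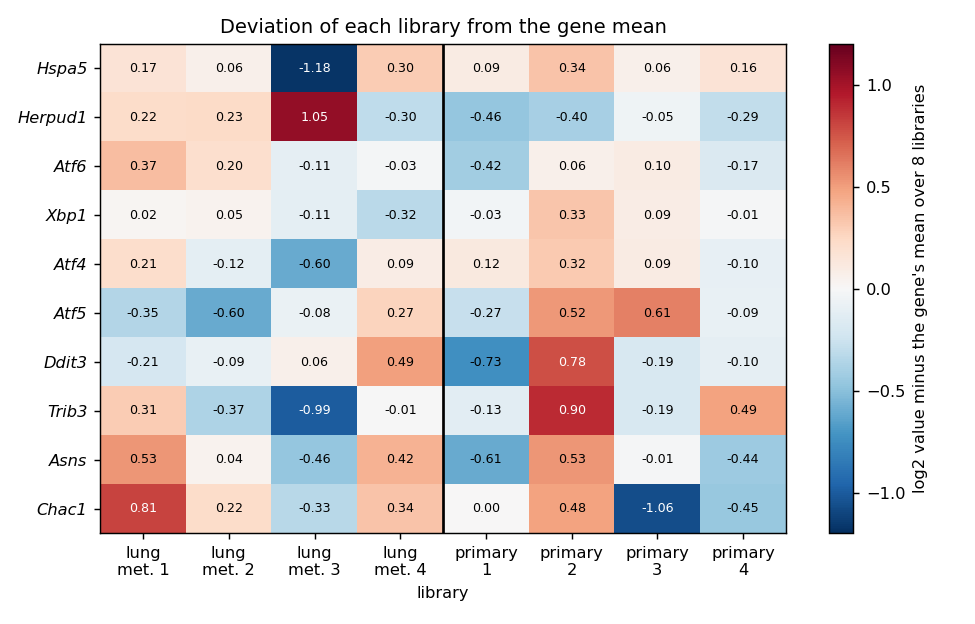
Deviation of each library from the mean of the gene over all 8 libraries, on the log2(value + 1) scale, lung metastases in the 4 left columns and primary tumours in the 4 right columns. Lung metastasis 3 stands at -1.18 for Hspa5 and 1.05 for Herpud1, and primary tumour 2 is above the mean for all genes except Herpud1.

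Levels of different genes were compared only per kilobase of exon, using GENCODE M21 lengths since the authors' annotation is not given in the sources used here. Hspa5 was the most abundant of the 10, at 408 ± 151 normalised reads per kilobase in the lung metastases and 478 ± 42.4 in the primary tumours (SD, n = 4 each). Atf4 followed at 123 ± 28.3 in the lung metastases and 140 ± 16.6 in the primary tumours, and Xbp1 at 82.7 ± 9.45 in the lung metastases and 94 ± 11.3 in the primary tumours. Atf5, Herpud1 and Asns lay together, at 36.1 ± 9.64, 33.8 ± 14.1 and 29.8 ± 8.62 in lung metastases, with overlapping values. Chac1 came last in both groups, at 4.68 ± 1.68 in the lung metastases and 3.22 ± 1.67 in the primary tumours. Ddit3, at 18.4 ± 4.37 in the lung metastases and 17.8 ± 8.76 in the primary tumours, stood between these and Atf6 and Trib3. The order of the first 4 genes and of the last was the same in both groups, whereas Herpud1 with Asns and Atf6 with Trib3 changed places, with overlapping values in the primary tumours.

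The other genes of the pathway were taken from 4 textbook lists with 127 entries, 120 of them tested. In all, 7 were called, 2 higher and 5 lower in lung metastases, or 5.83%, where 9.13% of all genes were called. The first list held 23 tested genes of stress sensing and signalling. Of these, 7 (30.4%) were highest in primary tumour 2 among the primary tumours, against 29.8% of all genes. Among the metastases, 10 (43.5%) were lowest in lung metastasis 3, against 40.2% of all genes. Only 1 gene of the list was called. Creb3l1, which encodes OASIS, an ER-bound transcription factor related to ATF6, rose in lung metastases. It stood at 8.5, 14.3, 8.04 and 12.1 in the lung metastases and 2.46, 2.64, 3.74 and 5.11 in the primary tumours (log2 1.39, SE 0.306, adjusted p = 0.017). The groups did not overlap. Its call ended without lung metastasis 2 (adjusted p = 0.0688) or primary tumour 1 (0.0559; 0.000135 to 0.0688 over 18 alternatives).

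No gene of the ER sensors passed the test. Ern1, which encodes IRE1 alpha, averaged 69.4 ± 21.9 in the lung metastases and 58 ± 9.8 in the primary tumours (log2 0.21, adjusted p = 0.638). Eif2ak3, which encodes PERK, averaged 35.1 ± 6.76 in the lung metastases and 28.5 ± 4.22 in the primary tumours (log2 0.28, adjusted p = 0.434), with the metastasis above the primary tumour in every mouse. Atf6b, the paralogue of Atf6, averaged 69.1 ± 10.2 in the lung metastases and 61.5 ± 10.6 in the primary tumours (adjusted p = 0.613). None of the 4 eIF2 alpha kinase genes passed: besides Eif2ak3, Eif2ak4 (GCN2) gave a log2 difference of -0.43 (adjusted p = 0.218), Eif2ak2 (PKR) -0.24 (0.582) and Eif2ak1 (HRI) 0.14 (0.705).

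Ppp1r15a encodes GADD34, the inducible subunit of the phosphatase that ends the eIF2 alpha signal. It stood at 19.9, 18.5, 33.1 and 20.5 in the lung metastases and 7.03, 26.2, 11.6 and 12.3 in the primary tumours (log2 0.76, SE 0.361, adjusted p = 0.24). Mouse 2 ran against the other mice. The genes of both proteases that cut ATF6 had lower values in the metastasis of every mouse, with no overlap between the groups, without passing. Mbtps1 averaged 157 ± 19.4 in the lung metastases and 213 ± 5.28 in the primary tumours (adjusted p = 0.0979). Mbtps2 averaged 45.7 ± 13.2 in the lung metastases and 64.7 ± 6.98 in the primary tumours (adjusted p = 0.203). Mbtps1 passed with array weights (adjusted p = 0.0439) and with DESeq2 (0.00933; 0.00933 to 0.245 over 18 alternatives).

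The ER folding and quality control list, 41 tested genes of chaperones, disulphide isomerases and the degradation machinery, gave 0 called genes by limma, 0 by edgeR and 2 by DESeq2, and 2 with an unadjusted p under 0.05 by limma. Over all genes, limma called 9.13%, edgeR 7.5% and DESeq2 14.3%, and 23% had an unadjusted p under 0.05 by limma. The differences of the list lay between -0.41 and 0.58 on the log2 scale, with a median of -0.08. Dnajc3, which encodes a cochaperone of BiP and inhibitor of PERK (P58IPK), had the smallest p. It stood at 196, 224, 191 and 195 in the lung metastases and 117, 148, 158 and 147 in the primary tumours, with no overlap (log2 0.50, SE 0.155, adjusted p = 0.0744). It passed without lung metastasis 3 (adjusted p = 0.0372), with array weights (0.0169), with median-ratio scaling (just under the threshold, 0.05 when rounded) and with DESeq2 (0.00368; 0.00368 to 0.214 over 18 alternatives). Ero1lb, an oxidase that renews the disulphide isomerases, averaged 26.8 ± 2.21 in the lung metastases and 17.6 ± 2.47 in the primary tumours, again with no overlap (log2 0.58, SE 0.193, adjusted p = 0.0932). Array weights (adjusted p = 0.0388) and DESeq2 (0.00811) brought it past the threshold (0.00811 to 0.237 over 18 alternatives). Sel1l, a subunit of the ER degradation ligase, also did not overlap, at 127 ± 21.5 in the lung metastases and 99.3 ± 6.47 in the primary tumours (adjusted p = 0.244). The cochaperone gene Dnajb9 (log2 0.30, adjusted p = 0.322) and the translocon subunit gene Ssr3 (log2 -0.41, adjusted p = 0.401) did not pass. In this list 29 of 41 genes (70.7%) were lowest in lung metastasis 3 among the metastases, where 40.2% of all genes were, and 9 (22%) were highest in primary tumour 2 among the primary tumours, where 29.8% of all genes were.

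The list of amino acid supply under ATF4, 30 tested genes of amino acid synthesis, transport and tRNA charging, had 1 gene called. Slc7a11, the cystine transporter that supplies glutathione synthesis, fell in lung metastases. It stood at 30.7, 10.5, 3.92 and 18.4 in the lung metastases and 33.1, 199, 56.8 and 83 in the primary tumours (log2 -2.47, SE 0.616, adjusted p = 0.031). The groups did not overlap, but mouse 1 differed little (log2 -0.10) while mouse 2 differed most (-4.12). Its call ended without lung metastasis 2 (adjusted p = 0.0944), without primary tumour 2, 3 or 4 (0.072, 0.0624 and 0.0955) and with edgeR (0.052; 0.000878 to 0.0955 over 18 alternatives). Slc7a5, a transporter of large neutral amino acids, averaged 81 ± 37.8 in the lung metastases and 179 ± 119 in the primary tumours without passing (log2 -1.03, adjusted p = 0.216); like Slc7a11 it was highest in primary tumour 2 (344) and lowest in lung metastasis 3 (40). Wars, the tryptophanyl-tRNA synthetase, had a higher normalised count in the metastasis than in the primary tumour of each mouse, with 106 ± 26.4 in the lung metastases and 67.8 ± 12.6 in the primary tumours (log2 0.62, adjusted p = 0.113). It passed without lung metastasis 4 (adjusted p = 0.0453), with array weights (0.0191) and with DESeq2 (0.0479; 0.0191 to 0.276 over 18 alternatives). The glutamine transporter gene Slc1a5 (log2 0.39, adjusted p = 0.228), Sars (-0.49, 0.246) and the cystathionine lyase gene Cth (-0.72, 0.265) did not pass, although Slc1a5 did with array weights (0.0239; 0.0239 to 0.482 over 18 alternatives). Of this list, 19 of 30 genes (63.3%) were highest in primary tumour 2 among the primary tumours, against 29.8% of all genes. Among the metastases, 22 (73.3%) were lowest in lung metastasis 3, against 40.2% of all genes.

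**Figure D4:**
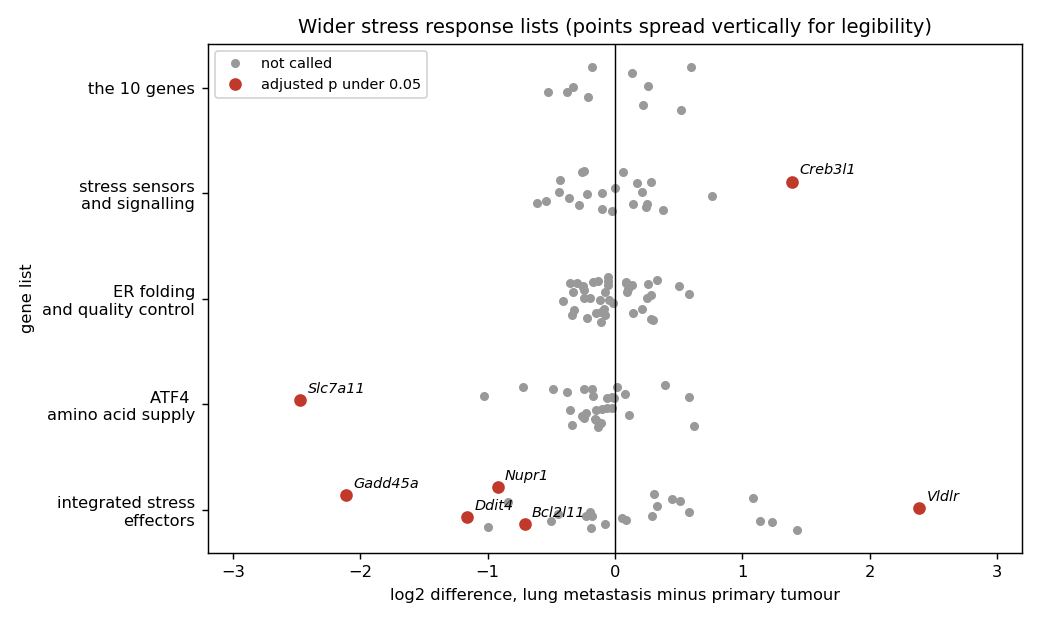
Log2 difference (lung metastasis minus primary tumour) of every tested gene of the 10 and of the 4 wider lists; red points passed an adjusted p under 0.05 and are named. The 7 called genes lie in 3 lists, 5 of them among the integrated stress effectors.

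Among downstream effectors of the integrated stress response, 5 of 26 tested genes were called, 1 higher and 4 lower, or 19.2%, where 9.13% of all genes were called (7.18% higher and 1.96% lower), and the list median was -0.015 on the log2 scale. Of these 26 genes, 17 (65.4%) were highest in primary tumour 2 among the primary tumours, against 29.8% of all genes, and 8 (30.8%) were lowest in lung metastasis 3 among the metastases, against 40.2% of all genes. Gadd45a, a growth arrest and DNA damage gene that is also a target of p53, fell most among them. It stood at 139, 102, 53.4 and 75.4 in the lung metastases and 395, 237, 488 and 445 in the primary tumours (log2 -2.11, SE 0.312, adjusted p = 0.00207), with no overlap. Ddit4, which encodes the mTORC1 inhibitor REDD1 and also answers to hypoxia and glucocorticoids, stood at 71.6, 80, 45.4 and 80.2 in the lung metastases and 146, 179, 122 and 167 in the primary tumours (log2 -1.16, SE 0.215, adjusted p = 0.00771). Both were lower in the metastasis of all 4 mice, and both calls held in all 18 alternatives.

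Nupr1, a stress-induced chromatin protein, fell to 117 ± 30.5 in lung metastases, against 220.2 ± 45.5 in the primary tumours (log2 -0.92, SE 0.233, adjusted p = 0.033). Its call ended without lung metastasis 1 or 2 (adjusted p = 0.0739 and 0.0913) and without primary tumour 1, 2 or 4 (0.0657, 0.0869 and 0.116; 0.00523 to 0.116 over 18 alternatives). Bcl2l11, which encodes the death-promoting protein BIM, fell to 61.5 ± 10.2 in lung metastases, against 101 ± 14.2 in the primary tumours (log2 -0.71, SE 0.18, adjusted p = 0.0329). Its call ended with the mouse as a replicate block (adjusted p = 0.0551), without lung metastasis 1 or 2 (0.0766 and 0.0964) and without primary tumour 1, 3 or 4 (0.101, 0.107 and 0.116; 0.00402 to 0.116 over 18 alternatives). Both genes were lower in the metastasis of all 4 mice.

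Vldlr, a lipoprotein receptor gene that ATF4 and hypoxia can induce, rose. It stood at 11.9, 17.7, 37.5 and 6.51 in the lung metastases and 0.834, 2.76, 4.42 and 1.48 in the primary tumours (log2 2.39, SE 0.511, adjusted p = 0.015). It was highest in lung metastasis 3 and lowest in lung metastasis 4, which had the largest and smallest lung epithelium shares (3.44% and 0.755%); their part in this rise was not tested. Its call ended without lung metastasis 2 (adjusted p = 0.0583) or primary tumour 1 or 4 (0.0514 and 0.0563; 6.52e-05 to 0.0583 over 18 alternatives). Vegfa, the vascular growth factor gene, was likewise highest in lung metastasis 3 and lowest in lung metastasis 4 among the metastases, at 138, 126, 307 and 84.3 in the lung metastases and 48.7, 99.4, 57.7 and 50.8 in the primary tumours, and did not pass (log2 1.23, SE 0.367, adjusted p = 0.0643). It passed without lung metastasis 4 (adjusted p = 0.0308) or primary tumour 2 (0.0425), with array weights (0.00389) and with DESeq2 (0.00991; 0.00389 to 0.181 over 18 alternatives). The effector genes that fell, Gadd45a, Ddit4, Nupr1 and Bcl2l11, are known to be induced by several pathways besides ATF4. Some markers of other cells were also called lower in the metastases. Macrophage genes, of which 2 of 11 tested were called lower (Apoe and Trem2) and none higher, had a summed share of 0.118% to 0.336% in lung metastases, against 0.307% to 0.756% in primary tumours. Apoe stood at 965, 1329, 458 and 856 in the lung metastases and 3269.6, 1672, 4279 and 3674 in the primary tumours. Like all 4 effector genes that fell, it was lowest in lung metastasis 3 among the metastases. So were 5 of the 11 tested macrophage genes (45.5%) and 40.2% of all genes. Among the primary tumours, Apoe, Gadd45a and Bcl2l11 were lowest in primary tumour 2. Ddit4 and Nupr1 were instead highest in primary tumour 2 (179 and 261) and lowest in primary tumour 3 (122 and 172). Of 12 tested fibroblast and matrix genes, 3 were called lower (Thy1, Postn and Fap) and 1 higher (Dcn), with a summed share of 0.168% to 0.305% in lung metastases, against 0.124% to 0.296% in primary tumours. These called markers were named after their values were seen, and the part of these cells in the 4 falls was not tested.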

How the data were processed

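RNA of whole tumour tissue was extracted with an RNeasy kit and sequenced from TruSeq RNA libraries, per the labels' protocols. The genome build was mm9, per the submitters' processing notes; no aligner, counter or annotation is named in the labels. The values the authors deposited are a scaled signal, reads of a gene per 1000000 of an adjusted library size. CPM had been assumed in the design, but column totals differed from 1000000. All BC values were whole multiples of 1 read (100%, tolerance 0.05 reads), worth 0.0337 to 0.0676, which recovered the reads. PDAC columns held values on all 37583 rows, but their means followed those of the BC columns beside the same symbols with Spearman's rho of 0.1 over rows, and -0.12 to 0.12 within windows of 500 rows, so no PDAC row was named.

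Genes that reached 1 in 4 or more of the 8 libraries were tested with limma 3.58.1 (R 4.3.3), with an intensity trend on log2(value + 1) and group means only; this scale shrinks the fold changes of low genes. Benjamini-Hochberg adjustment ran over all genes, with a threshold of 0.05. The 18 alternatives were pseudocounts of 0.1 and 5, no filter, a filter at 5, 2 other scalings, array weights, edgeR 4.0.16 and DESeq2 1.42.0 on the recovered reads, the mouse as a block, and each library left out. The fits were also run on simulated counts with known changes. These had the same dispersion for every gene and no differences in composition between libraries, so they do not show how the fits perform on libraries as unlike as these. The titles number tissues of the same mouse, which pairs them; the correlation of their deviations from the group means was 0.02 in the median (-0.15 to 0.1). No libraries of a group agreed within sampling noise (smallest chi-square per degree of freedom 53.3).

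The members and lists were chosen with earlier results of these data known. Named were the 10 genes, genes of the sensor list, and up to 6 genes with the smallest p of each other pathway list. Intervals are 95% confidence intervals. Reads carry no molecular identifiers. The exon overlaps and lengths come from GENCODE M21, a different build from the files, so no gene coordinates other than those of the promoter table are given.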

Additional observations from a re-analysis of the deposited data

Results flagged for a closer look

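In 5 of 78 groups of 4 libraries (39 named genes in 2 groups), 1 library stood apart from the other three by Dixon's ratio, the gap to the nearest library divided by the range of the group, above its 95% critical value; chance gives about 1 in 20. None of the 10 core genes was among them. Ppp1r15a was highest in lung metastasis 3 (33.1, ratio 0.862) and Dnajc3 in lung metastasis 2 (224, ratio 0.844). Among primary tumours, Ero1lb was highest in primary tumour 1 (21.3, ratio 0.866), Sars, the seryl-tRNA synthetase, lowest in primary tumour 4 (216, ratio 0.845) and Bcl2l11 lowest in primary tumour 2 (79.9, ratio 0.944).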

How the results depend on the processing

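The count of called genes among the 10 was 0 under all 18 alternatives, with adjusted p from 0.0701 to 0.982. Signs changed for Hspa5 without lung metastasis 3 (log2 difference 0.012; -0.48 to 0.012 over the libraries left out) and for Ddit3 without lung metastasis 4 (-0.015) or primary tumour 1 (-0.10; -0.10 to 0.41), and for no other gene of the 10. With the mouse as a replicate block, 1112 genes were called over all genes and 0 of the 10, and the call of Bcl2l11 was the only one lost among the named genes (adjusted p = 0.0551). Over all genes, array weights called 2283 and DESeq2 1985, against 1279, and leaving out each library called 563 to 1155, with 563 without lung metastasis 1, 651 without lung metastasis 2, and 839, 842 and 697 without primary tumours 1, 3 and 4. Array weights, which called 2283 of all 14003 genes, called 2 of 23 sensor genes and 3 of 41 ER folding genes. They also called 4 of 30 amino acid supply genes and 9 of 26 effectors. DESeq2, which called 14.3% of all genes, called 2, 2, 2 and 9 in the same order. edgeR called 0 amino acid supply genes, and median-ratio scaling called 1 ER folding gene. Leaving out each library gave 0 to 1 sensor genes, 0 to 1 ER folding genes, 0 to 2 amino acid supply genes and 2 to 7 effectors. The cause of these shifts was not tested. Scaling by column totals or median ratios kept the median of all genes within -0.07 to -0.02. Of the 10 genes, Chac1 had the fewest reads (67 in its lowest library); among the called pathway genes, Vldlr had 21, Slc7a11 58 and Creb3l1 62 in theirs.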
